A study of Mus musculus with 36 samples.

Results

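Neutrophil granule genes were followed in 2 kinds of mouse blood progenitor over 24 h of TGF-β1, on arrays that measure RNA levels across the genome. The group holds 8 genes of the 19938 tested: Mpo, Elane, Prtn3 and Ctsg of the azurophil granules, Mmp8, Ngp and Lcn2 of the specific and gelatinase granules, and S100a8, a cytosolic protein of the same cells. Each was taken by its gene symbol from the platform's annotation, and each has 1 probe set that carries no other symbol. The cells were multipotent progenitors (MPP), from which any blood lineage can arise, and common dendritic cell progenitors (CDP), whose progeny are dendritic cells. Both came from cytokine cultures of mouse bone marrow and were purified by FACS. Groups were untreated (0 h) or had 2, 4, 8, 12 or 24 h of recombinant human TGF-β1 at 10 ng/ml, with 3 arrays in each of 12 groups and 36 arrays in all. No strain, sex or age of the animals is used here, no allele is named for any group, and the treatment is the same in both cells. Among the 36 arrays the untreated ones were all at 0 h, so the effect of the cytokine and that of time in culture cannot be told apart.

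Neutrophils pack their weapons into granules that are made in waves during maturation in the marrow. The azurophil granules come first, in promyelocytes, and carry myeloperoxidase and serine proteases. Specific and gelatinase granules follow in later stages, and the cytosolic calprotectin proteins accumulate alongside them. Because the waves are separate, transcripts of each kind are used as marks of a stage of granulocyte formation, and the first wave is also seen at lower levels in early myeloid progenitors that have not chosen between neutrophil and monocyte fates. Dendritic cells do not make these granules.

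Levels are log2 intensities made by RMA, where a step of 1 is a doubling, and each is set against the whole array by the normalization. Arrays of the same group correlated at 0.986 or more, and the SD between replicates had a median over genes of 0.0637 to 0.0817. A difference passed the test when limma gave a Benjamini-Hochberg adjusted p under 0.01 over all genes and an absolute log2 change of 1 or more. Errors of changes are limma standard errors (SE), with 3 arrays in each group. Some general markers went with the names of the cells. Kit was lower in untreated CDP than in untreated MPP by a log2 difference of −2.67 ± 0.23, while Flt3 (2.14 ± 0.22) and Itgax (3.65 ± 0.17) were higher. Of 9 progenitor markers 4 passed as lower in untreated CDP (1.55% of all genes) and 0 as higher. Of 14 dendritic cell markers 6 passed as higher (1.26% of all genes) and 0 as lower. Some arrays stood apart in 15 interferon-stimulated genes. Their mean level was 12.39 on replicate 3 of CDP at 2 h (lowest of that group 8.30), 10.37 on replicate 3 of untreated CDP (lowest 8.38) and 8.99 on replicate 3 of untreated MPP (lowest 8.02). With replicate 3 left out, and with the first and last of these arrays left out together, the members called lower numbered 7 in untreated CDP, 3 in CDP at 24 h and 1 in MPP at 24 h.

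The first comparison asks where the genes stood before any TGF-β1. In untreated CDP, 7 of 8 members were lower than in untreated MPP, where 1.55% of all genes passed the test in that direction. The members fell apart into genes that were many times lower in CDP, Mpo, Elane, S100a8, Ngp and Lcn2, and genes that were a few times lower or near the MPP level, Ctsg, Prtn3 and Mmp8. The division ran through both granule classes. In bulk RNA, fewer cells of a type and less RNA per cell cannot be told apart.

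Mpo, the myeloperoxidase that makes hypochlorous acid, had levels of 14.01, 14.01 and 13.98 in the 3 untreated MPP arrays and of 8.84, 8.21 and 8.23 in the 3 untreated CDP arrays. The groups lay far apart. The log2 difference, CDP minus MPP, was −5.58 ± 0.23 (47.7-fold lower, limma adjusted p = 1.5e-16), and no other gene of the 19938 had a larger negative difference. Elane, the gene of neutrophil elastase, measured 13.67, 13.76 and 13.79 in MPP and 8.70, 8.21 and 8.23 in CDP. Every CDP array was thus well below every MPP array, and the difference was −5.36 ± 0.15 (40.9-fold, limma adjusted p = 1.86e-20).

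Proteinase 3, the product of Prtn3, is the elastase-like protease encoded next to Elane. Its levels were 13.83, 13.78 and 13.91 in untreated MPP, close together, and 12.60, 12.23 and 12.29 in untreated CDP. The groups did not overlap, but the distance was small beside that of its neighbour: −1.46 ± 0.15, or 2.76-fold (limma adjusted p = 8.53e-09). Ctsg encodes cathepsin G, a protease with chymotrypsin-like activity. It measured 13.73, 13.77 and 13.83 in MPP and 11.68, 11.38 and 11.28 in CDP, a difference of −2.33 ± 0.16 (5.02-fold, limma adjusted p = 2.39e-12). Within the azurophil class, then, Prtn3 and Ctsg lay much nearer to their MPP levels in CDP than Mpo and Elane did.

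Among the genes of later granules, Mmp8 (neutrophil collagenase, which cuts fibrillar collagens) had levels of 12.60, 13.03 and 12.55 in untreated MPP and 11.89, 11.82 and 12.00 in untreated CDP. The ranges did not overlap, yet the difference of −0.83 ± 0.27 (1.77-fold, limma adjusted p = 0.0269) did not pass. Ngp, a cathelicidin-like granule protein, measured 12.77, 13.39 and 13.66 in MPP and 9.04, 8.43 and 7.62 in CDP. The replicates were spread widely in both cells, but the gap was wider still, −4.91 ± 0.47 (30.0-fold, limma adjusted p = 2.7e-09).

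Lcn2 encodes lipocalin 2, which binds bacterial siderophores. Its 3 MPP arrays read 12.84, 13.35 and 13.52 and its 3 CDP arrays 8.92, 8.64 and 8.63, a difference of −4.51 ± 0.30 (22.8-fold, limma adjusted p = 2.39e-12). S100a8, a subunit of calprotectin, which withholds metal ions from microbes, measured 11.55, 12.39 and 12.89 in MPP and 7.43, 7.12 and 6.96 in CDP. The MPP arrays differed among themselves by more than 1 log2 step, and the difference between the cells was −5.11 ± 0.39 (34.5-fold, limma adjusted p = 3.57e-11).

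**Figure D1:**
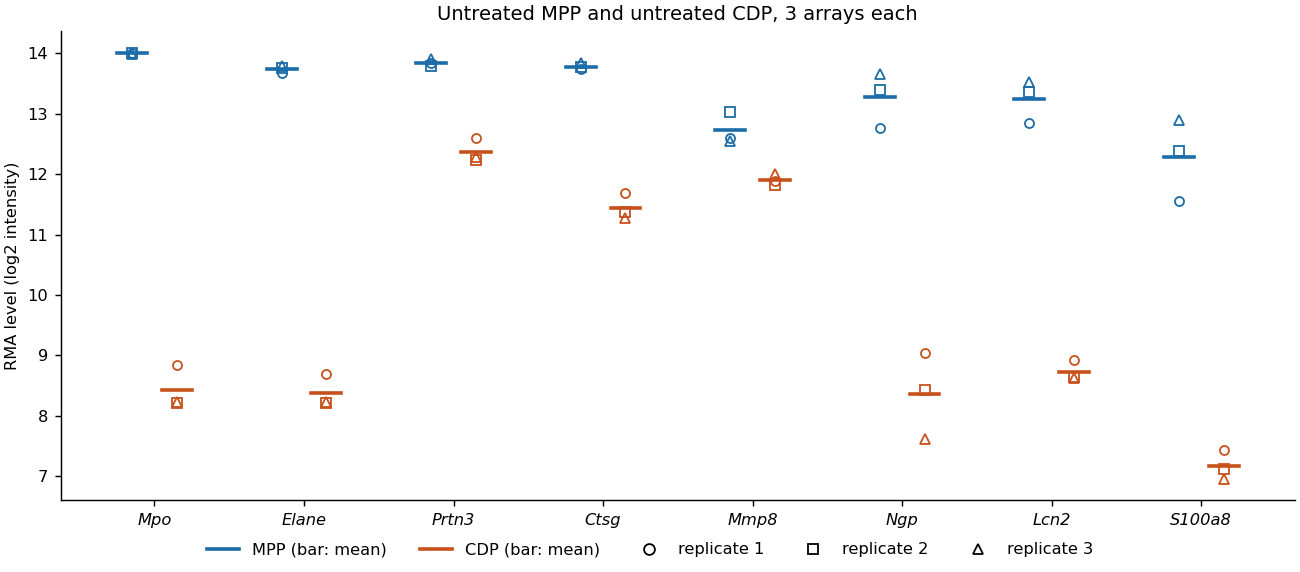
RMA level (y axis, log2 intensity) of each member (x axis) on the 3 arrays of untreated MPP (blue) and the 3 arrays of untreated CDP (orange), with a symbol for each replicate number and a bar for the group mean. The differences of the means, CDP minus MPP, are −4.51 to −5.58 for Mpo, Elane, Ngp, Lcn2 and S100a8 and −0.83 to −2.33 for Prtn3, Ctsg and Mmp8.

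Other genes listed for each granule class were divided in the same contrast. Of 10 further azurophil genes measured, 4 were lower in untreated CDP and 0 higher, with a list median of −0.24 against 0.03 over all genes. Of 18 further genes of specific and gelatinase granules, 6 were lower and 1 higher (where 1.26% of all genes were higher), with a median of −0.71. The lower ones included Chil3, a chitinase-like protein (−4.98 ± 0.40), Pglyrp1, a peptidoglycan recognition protein (−3.96 ± 0.16), and Ltf, the lactoferrin gene (−3.32 ± 0.61). S100a9, whose product pairs with that of S100a8, was lower by a like amount, −4.38 ± 0.45.

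Of 22 regulators of granulopoiesis, 6 were lower in untreated CDP, where 1.55% of all genes were, and 0 were higher. The other 16 did not pass, and the list median was −0.11 against 0.03 over all genes. By size and known role, and chosen after their values were seen, the lower ones included Gfi1, a repressor needed for neutrophil formation (−2.12 ± 0.17), Cebpe, the factor of terminal granulopoiesis (−1.94 ± 0.17), and Cebpa, which starts the granulocyte and monocyte programme (−1.42 ± 0.22).

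The promoters of 4 members are printed here because they carry the contrasts: the neighbours Prtn3 and Elane, which had different levels in CDP, and Ctsg and Mmp8, which fell with TGF-β1 as described further on. Each run is the 250 bases before the annotated start, 5′ to 3′ on the gene's own strand, from RefSeq on GRCm38.p6, and all 8 members matched the promoter table. Capitals mark GAGGAA (a core of PU.1 sites) and TTGCNNAA (a form of C/EBP sites) on either strand.
Prtn3, chr10:79879417-79879666, plus strand: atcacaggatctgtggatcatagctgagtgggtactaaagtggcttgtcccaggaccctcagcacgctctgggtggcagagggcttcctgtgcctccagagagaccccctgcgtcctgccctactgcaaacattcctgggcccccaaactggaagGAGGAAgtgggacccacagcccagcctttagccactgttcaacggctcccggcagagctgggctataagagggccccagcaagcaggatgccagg
Elane, chr10:79886062-79886311, plus strand: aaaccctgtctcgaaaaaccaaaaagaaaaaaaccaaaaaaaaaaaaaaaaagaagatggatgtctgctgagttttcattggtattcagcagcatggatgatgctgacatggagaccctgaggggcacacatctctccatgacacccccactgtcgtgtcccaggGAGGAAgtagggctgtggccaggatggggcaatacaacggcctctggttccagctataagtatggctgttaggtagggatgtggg
Ctsg, chr14:56102575-56102824, minus strand: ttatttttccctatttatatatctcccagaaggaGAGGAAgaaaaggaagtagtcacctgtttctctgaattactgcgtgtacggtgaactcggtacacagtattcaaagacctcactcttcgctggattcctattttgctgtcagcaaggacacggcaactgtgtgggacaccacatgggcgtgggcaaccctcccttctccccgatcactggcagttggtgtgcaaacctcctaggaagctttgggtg
Mmp8, chr9:7558179-7558428, plus strand: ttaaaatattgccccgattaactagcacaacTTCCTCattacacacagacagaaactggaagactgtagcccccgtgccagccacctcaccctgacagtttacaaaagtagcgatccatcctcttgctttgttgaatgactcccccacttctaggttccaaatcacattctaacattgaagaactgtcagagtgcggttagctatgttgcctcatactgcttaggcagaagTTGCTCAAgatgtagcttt

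Motifs were searched on both strands of the 300-base windows of the table, which reach 50 bases past the start, and positions count back from −1 at the base before it. GAGGAA was found in 7 of 8 members and in 28.3% of all 32851 promoters. Prtn3 and Elane hold it on the same strand at similar places, −95 to −90 and −85 to −80, and Ctsg has it at −216 to −211. TTGCNNAA was found in 3 of 8 members (Mmp8, Ngp and Lcn2, the members of the later granules) and in 10.8% of all promoters. In Mmp8 it lies at −19 to −12. TAACNG of Myb sites was in 3 of 8 (23.3% of all), TGTGGT of Runx sites in 1 of 8 (16.8%) and GTCTG of Smad sites in 5 of 8 (49.6%). Of the members that fell with TGF-β1, Mmp8 has GTCTG and Prtn3 and Ctsg have none in this window. In S100a8 a GAGGAA and a GTCTG match share 1 base. A match is a description of the letters only.

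The second comparison asks what changed in CDP during TGF-β1. After 24 h, 3 of 8 members had fallen, Mmp8, Ctsg and Prtn3, where 1.79% of all genes passed the test as lower. These were the 3 members with the smallest distance between untreated CDP and untreated MPP, and both comparisons use the same untreated CDP arrays. No member passed as higher (1.35% of all genes did). Of the other 5, 0 passed the test. At 2 and 4 h 0 of 8 passed in either direction, where 0.326% and 0.702% of all genes did.

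Mmp8 fell the furthest. Its CDP arrays in the order of replicates 1, 2 and 3 read 11.89, 11.82 and 12.00 at 0 h, 11.74, 11.78 and 11.43 at 2 h, and 11.17, 11.66 and 11.55 at 4 h. They read 10.63, 10.52 and 11.04 at 8 h, 9.46, 9.20 and 9.55 at 12 h, and 6.27, 7.13 and 6.90 at 24 h. From 2 h on no array overlapped the range at 0 h, and at 24 h all 3 arrays were far below those at 12 h. The change against 0 h was −1.17 ± 0.18 at 8 h (2.25-fold lower, limma adjusted p = 0.000428) and −2.50 ± 0.18 at 12 h (5.64-fold, limma adjusted p = 2.71e-07). By 24 h it was −5.14 ± 0.18 (35.2-fold, limma adjusted p = 1.17e-10), the largest fall among the 19938 genes.

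For Ctsg the CDP arrays read 11.68, 11.38 and 11.28 at 0 h, 11.45, 11.22 and 10.92 at 2 h, and 11.11, 11.07 and 10.83 at 4 h. Values were then 10.25, 9.86 and 9.43 at 8 h, 9.50, 9.09 and 8.83 at 12 h, and 8.06, 7.68 and 7.84 at 24 h. The range left that of 0 h from 4 h on. The replicates were spread most at 8 h (SD 0.41, n = 3) and 12 h (SD 0.34), where they overlapped slightly, and the arrays at 24 h lay below all others. The change was −1.60 ± 0.10 at 8 h (3.03-fold lower, limma adjusted p = 9.08e-08), −2.31 ± 0.10 at 12 h (4.96-fold, limma adjusted p = 1.71e-09) and −3.59 ± 0.10 at 24 h (12.0-fold, limma adjusted p = 1.27e-11). Ctsg and Mmp8 were the 2 of 8 members called lower at 8 h (0.547% of all genes) and at 12 h (0.998%).

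Prtn3 moved later. Its CDP arrays read 12.60, 12.23 and 12.29 at 0 h, 12.36, 12.01 and 11.96 at 12 h, and 11.13, 11.34 and 10.59 at 24 h. The arrays at 12 h overlapped those at 0 h and the arrays at 24 h did not. The change was −0.26 ± 0.12 at 12 h (limma adjusted p = 0.196) and −1.35 ± 0.12 at 24 h (2.56-fold lower, limma adjusted p = 1.21e-06). Between same-numbered arrays it was −1.47, −0.89 and −1.70.

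Steps between consecutive times show the same order. From 4 to 8 h Ctsg alone of the 8 members passed as lower (−1.15 ± 0.10, limma adjusted p = 8.09e-05), a step in which 0.0451% of all genes were lower. From 8 to 12 h 0 of 8 passed (0.00502% of all genes were lower): Mmp8 changed by −1.32 ± 0.18 (limma adjusted p = 0.0101) and Ctsg by −0.71 ± 0.10 (limma adjusted p = 0.0112). From 12 to 24 h 3 of 8 passed (0.281% of all genes), with −2.64 ± 0.18 for Mmp8, −1.28 ± 0.10 for Ctsg and −1.09 ± 0.12 for Prtn3. The step of Prtn3 did not pass without replicate 1 (−1.02, limma adjusted p = 0.0193) or, by its fold, without replicate 3 (−0.95) or array 3 of CDP at 24 h (−0.96). That of Ctsg from 4 to 8 h did not pass without the replicate block (limma adjusted p = 0.0206) or without replicate 1 (0.016) or replicate 2 (0.0137).

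The other 5 members did not pass at any time. Their mean levels in untreated CDP were 7.17 (S100a8) to 8.73 (Lcn2), around the median gene of these arrays at 7.95. The members that fell had begun at 11.4 (Ctsg) to 12.4 (Prtn3). Whether the low starting levels left room for a fall was not tested. Ngp came closest: its arrays went from 9.04, 8.43 and 7.62 at 0 h to 9.80, 9.15 and 8.44 at 24 h. The 3 same-numbered pairs differed by 0.76, 0.72 and 0.82, although the ranges of the 2 times overlapped because the replicates differed among themselves. The change of 0.76 ± 0.10 had a limma adjusted p of 5.06e-05 but was under the fold threshold. Mpo at 24 h read 8.83, 7.81 and 8.65, overlapping its 0 h values, with a change of 0.00 ± 0.19. Elane read 8.57, 8.36 and 8.48, with a change of 0.09 ± 0.12. The 24 h range of Elane lay inside its 0 h range, and that of Mpo reached below and overlapped its own. For Lcn2 the change was 0.16 ± 0.21 and for S100a8 0.09 ± 0.14.

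**Figure D2:**
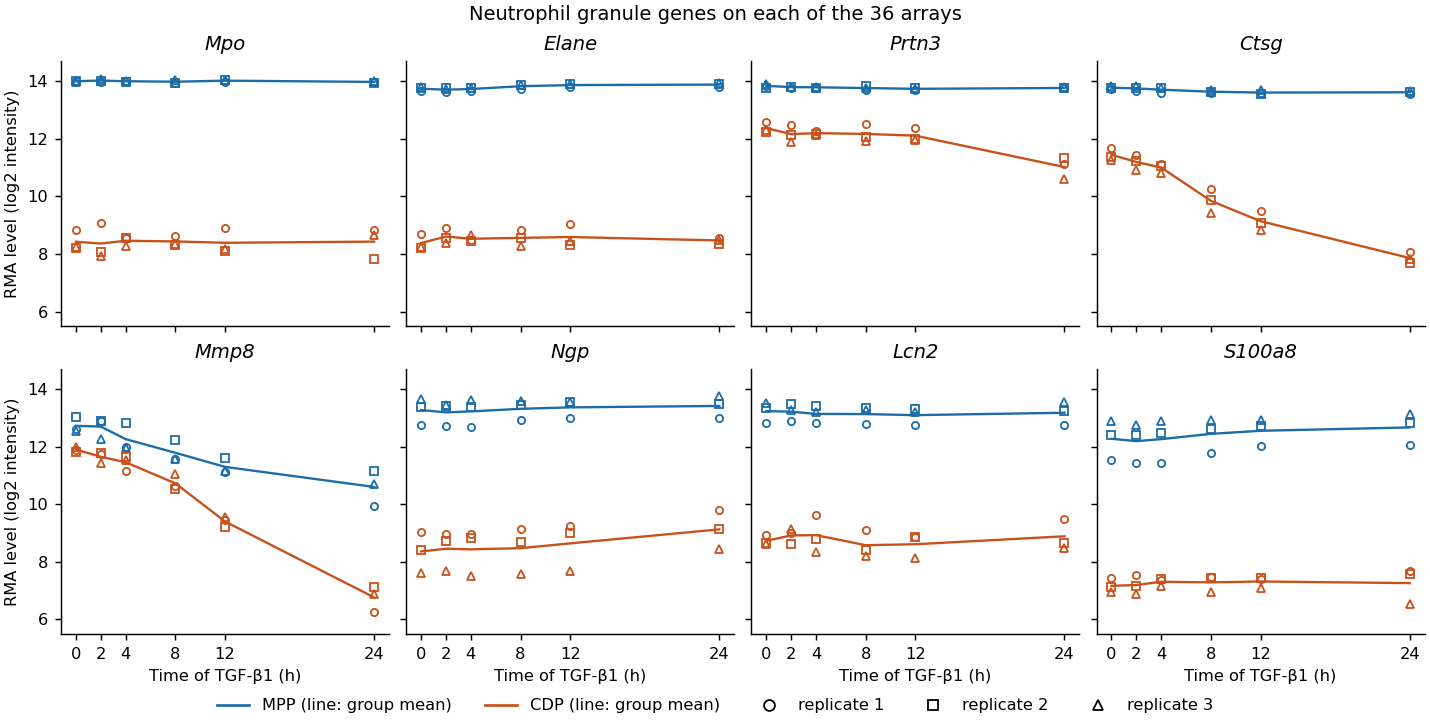
RMA level (y axis, log2 intensity) of the 8 members on every array, with hours of TGF-β1 on the x axis, for MPP (blue) and CDP (orange), with a symbol for each replicate number and a line through the group means. In CDP the means of Ctsg and Mmp8 decline at every time and first pass the test at 8 h, and Prtn3 passes at 24 h, while in MPP only Mmp8 falls by more than 1 log2 step.

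The third comparison asks the same of MPP. After 24 h, 1 of 8 members had fallen, Mmp8, where 0.487% of all genes passed the test as lower, and 0 had risen (0.717% of all genes). At 12 h Mmp8 was again the 1 member called lower (0.231% of all genes), and at 2, 4 and 8 h 0 of 8 passed in either direction, where 0.271%, 0.416% and 0.657% of all genes did. Over the whole course the limma F-test called 1 of 8 members in MPP (1.33% of all genes) and 3 of 8 in CDP (3.43%).

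Mmp8 in MPP read 12.60, 13.03 and 12.55 at 0 h, 11.57, 12.22 and 11.58 at 8 h, and 11.12, 11.61 and 11.17 at 12 h. At 24 h its arrays were at 9.95, 11.16 and 10.70. All arrays from 8 h on were below all arrays at 0 h, and the spread of the 3 replicates at 24 h was wide. The change was −1.43 ± 0.17 at 12 h (2.69-fold lower, limma adjusted p = 2.62e-05) and −2.13 ± 0.17 at 24 h (4.36-fold, limma adjusted p = 2.42e-07). In the pairs of equal number it was −2.65, −1.87 and −1.86.

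The azurophil members changed little in MPP. Over all 18 MPP arrays the lowest, median and highest level of Mpo was 13.95, 14.01 and 14.08, and that of Prtn3 was 13.69, 13.78 and 13.91. Elane changed by 0.14 ± 0.03 at 24 h (limma adjusted p = 0.00751, higher in 3 of 3 pairs) and Ctsg changed by −0.16 ± 0.04 (limma adjusted p = 0.0126, lower in 3 of 3), both far under the fold threshold. S100a8 changed by 0.39 ± 0.08 (limma adjusted p = 0.00183, higher in 3 of 3) and Lcn2 by −0.06 ± 0.08. The highest value of any tested gene on any array was 14.82, so the azurophil genes in MPP lay close to the top of the scale. Whether the scale held back a change there was not tested.

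**Figure D3:**
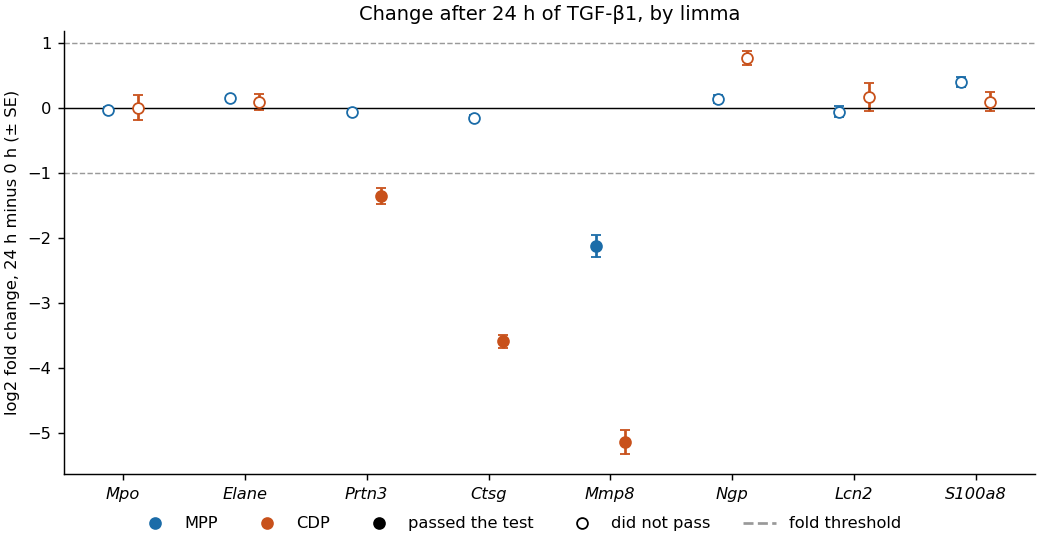
Log2 change from 0 to 24 h of TGF-β1 (y axis, ± SE) of each member (x axis) in MPP (blue) and CDP (orange). Filled points passed the test and dashed lines mark a log2 change of 1 in either direction. The filled points are Mmp8 in both cells, at −2.13 and −5.14, and Ctsg and Prtn3 in CDP.

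The fourth comparison tests the difference of the responses, the CDP change minus the MPP change. At 24 h it passed for 3 of 8 members, all with the greater fall in CDP, where 1.13% of all genes passed in that direction. For Ctsg the difference was −3.43 ± 0.11 (limma adjusted p = 9.8e-17), the second most negative of the 19938 genes. It was −3.01 ± 0.27 for Mmp8 (limma adjusted p = 7.67e-09) and −1.28 ± 0.14 for Prtn3 (limma adjusted p = 1.29e-07). The difference for Ctsg also passed at 8 h (−1.46 ± 0.11, 0.216% of all genes lower) and at 12 h (−2.14 ± 0.11, 0.471%). At 4 h it was −0.38 ± 0.11 (limma adjusted p = 0.116), which did not pass. Ctsg and Prtn3 in MPP lay close to the top of the scale, and whether this held back their changes there was not tested. For Mmp8 the courses ran side by side at first: the difference was −0.24 ± 0.27 at 8 h and −1.07 ± 0.27 at 12 h (limma adjusted p = 0.0164), which did not pass. That of Ngp at 24 h, 0.62 ± 0.12 (limma adjusted p = 0.000736), was under the fold threshold.

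After 24 h of TGF-β1 the levels in CDP were lower than those in MPP for 8 of 8 members, where 2.98% of all genes were. The differences ran from −2.75 ± 0.15 for Prtn3 to −5.76 ± 0.16 for Ctsg. Ctsg, which untreated CDP held at 11.28 to 11.68, was then at 7.68 to 8.06, and its distance to MPP stood beside −5.54 ± 0.23 for Mpo and −5.41 ± 0.15 for Elane. Mmp8, at −3.84 ± 0.27, had passed the test only at this end of the course.

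Further granule genes were counted in the same way. Of the 10 other genes on the azurophil list 3 fell in CDP by 24 h and 0 rose. The median change was −0.41 against 0.00 over all genes. The 3 were the lysozyme genes Lyz2 (−1.94 ± 0.21) and Lyz1 (−1.14 ± 0.08) and Serpinb1a (−1.91 ± 0.13), a protease inhibitor also counted among the inhibitors below. The other 7 did not pass, so these calls do not describe the azurophil class as a whole. In MPP 0 of the 10 fell and 1 rose, Cd63, a tetraspanin of granule membranes (1.19 ± 0.17), with a median of 0.01. Of the 18 other genes of specific and gelatinase granules 3 fell in CDP, namely Hp, the gene of haptoglobin (−3.76 ± 0.20), Lrg1, a leucine-rich glycoprotein (−2.64 ± 0.19), and Adam8, a membrane protease (−1.86 ± 0.15). The list median was −0.05. Adam8 also fell in MPP (−1.95 ± 0.10), as the 1 gene of the 18. Hp went from a mean level of 11.94 to 8.18 in CDP and Lrg1 from 9.48 to 6.85. Of the genes that were far lower in untreated CDP, Ltf (0.17 ± 0.08), Chil3 (0.11 ± 0.11) and Pglyrp1 (0.16 ± 0.13) did not pass the test.

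Of 7 genes listed as inhibitors of neutrophil serine proteases, 2 fell in CDP by 24 h, Slpi (−2.05 ± 0.10) and Serpinb1a. In MPP 2 fell, Slpi (−1.17 ± 0.06) and the serpin gene Serpinb10 (−2.53 ± 0.23). Which proteases each of these restrains was not looked at here. The list medians were 0.01 in CDP and −0.09 in MPP. Of 22 regulators of granulopoiesis 1 fell in CDP, Cebpb, which drives granulopoiesis in emergencies and is active in macrophages (−1.28 ± 0.14), and 0 rose. In MPP 0 of 22 passed in either direction. The medians were −0.10 and −0.04.

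Receptors of granulocytes went in both directions. Of 12 measured, 2 fell in CDP: Csf3r, the receptor of G-CSF, the main growth factor of neutrophils (−2.33 ± 0.09), and C5ar1, a complement receptor (−1.09 ± 0.24). In MPP C5ar1 (−1.49 ± 0.17) and the decoy receptor gene Il1r2 (−1.05 ± 0.11) fell, while Cxcr2, a chemokine receptor that draws neutrophils from the marrow, rose from a mean level of 9.99 to 12.00 (2.01 ± 0.11). Of 24 genes of the matrix metalloproteinase family and its inhibitors, Mmp8 apart, 2 fell in CDP, Mmp19 (−2.24 ± 0.18) and the inhibitor gene Timp1 (−1.18 ± 0.12), and 1 rose in MPP, Mmp2 (1.02 ± 0.14). Of 14 genes of the S100 family and 14 of the lipocalin family, members apart, 0 passed at 24 h in either cell.

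Genes that mark other cells moved in the same arrays. Of 11 markers of monocytes and macrophages 6 fell in CDP by 24 h, with a median of −1.55. Their mean level was 10.53 to 11.01 on the arrays at 0 h and 8.87 to 9.41 at 24 h. The largest falls were those of Adgre1, which encodes F4/80 (−3.44 ± 0.17), F13a1 (−3.22 ± 0.23) and Mrc1 (−2.33 ± 0.20). In MPP 3 of the 11 fell, and the mean level went from 10.44 to 10.76 at 0 h to 9.87 to 10.18 at 24 h. Of 14 markers of dendritic cells, 2 rose in CDP, Siglech (3.22 ± 0.14) and Itgax (1.91 ± 0.08), and 3 rose in MPP, Itgax (2.75 ± 0.11), Siglech (1.53 ± 0.13) and Flt3 (1.20 ± 0.10). Of 9 progenitor markers, 1 rose in CDP, Kit (2.79 ± 0.26), and 0 in MPP. The part of these cells in the falls of Ctsg, Mmp8 and Prtn3 was not tested.

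Of 8 markers of mature neutrophils, 1 fell in CDP by 24 h, Csf3r, and the median change of the list was −0.11 in both cells. The mean level of the 8 was 8.54 to 8.90 on the arrays of MPP at 0 h and 8.62 to 9.01 at 24 h, and 8.21 to 8.31 and 7.80 to 7.88 in CDP. Of the defining genes, Ly6g read 6.62 to 8.32 in untreated MPP and 6.32 to 6.52 in untreated CDP, and Mmp9 read 6.67 to 7.23 and 6.72 to 6.81. Retnlg was at 6.41 to 6.59 in MPP and 6.41 to 6.56 in CDP. Ly6g, Mmp9 and Retnlg all lay below the mean of the 8 in the untreated MPP arrays (8.54 to 8.90). Other genes of the list, Cxcr2 among them, stood higher, so these levels do not describe the list as a whole. In MPP 1 of 8 rose, Cxcr2, and 1 fell, Il1r2. The table holds no call of presence, and the lowest value of any tested gene was 4.64.

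The nearest genes on the chromosome were looked at for each member, 3 on either side in the order of RefSeq on GRCm38.p6 where they have a probe set. Of these 42 genes that are not members, 2 were lower in untreated CDP, where 1.55% of all genes were. They were S100a9, next to S100a8, and Mcpt8, a basophil protease gene next to Ctsg (−4.60 ± 0.23). Of 10 markers of mast cells and basophils 6 were lower in the same comparison, with a median of −1.69, so a low level was not particular to this position. At 24 h of TGF-β1, 1 of 42 was lower in CDP, where 1.79% of all genes were, and 1 was higher in MPP, where 0.717% were. Counts of 1 in 42 are near those shares, so both genes are given as descriptions of these positions. The latter was Mcpt2, a mast cell protease gene of the Ctsg cluster, at a mean level of 6.49 at 0 h and 9.80 at 24 h (3.31 ± 0.29).

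The gene that fell in CDP was Plppr3, the next one before Prtn3, which encodes a phospholipid phosphatase-related membrane protein. It changed by −1.22 ± 0.14 (limma adjusted p = 8.7e-06), beside −1.35 ± 0.12 for Prtn3 and 0.09 ± 0.12 for Elane on the other side. In the untreated cells the order was another: the difference of CDP and MPP was −0.58 ± 0.14 for Plppr3, −1.46 ± 0.15 for Prtn3 and −5.36 ± 0.15 for Elane. The flanking genes, Ptbp1 (−0.24 ± 0.05) and Med16 (−0.23 ± 0.08), did not pass in CDP at 24 h.

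**Figure D4:**
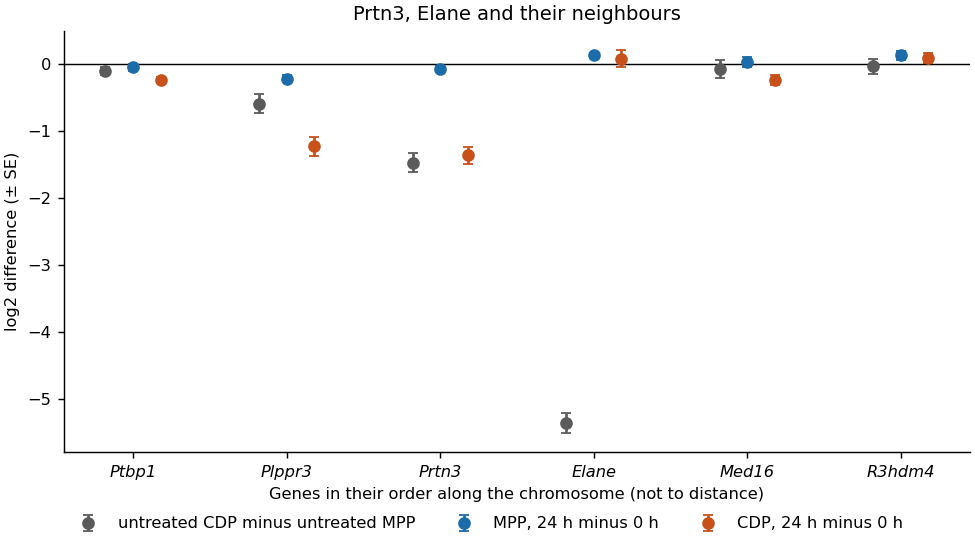
Log2 difference (y axis, ± SE) of Prtn3, Elane and the 4 genes around them, in their order along the chromosome (x axis, not to distance), for untreated CDP minus untreated MPP (grey) and for 24 h minus 0 h in MPP (blue) and CDP (orange). Elane stands out in grey at −5.36, and Plppr3 and Prtn3 stand out in orange at −1.22 and −1.35.

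Genes of like pattern were sought over the 12 group means, among 2098 genes whose means spanned 1 log2 step or more. As the 12 means share 2 cells, a gene that differs between MPP and CDP and stays flat scores highly, and the values describe these arrays only. The closest to Mpo was Ltf (Pearson r = 0.999), to Elane Chil3 (0.999), to S100a8 Chil3 (1.00), to Ngp S100a9 (0.998) and to Lcn2 Ltf (0.999). Mpo and Elane had the same r with each other (0.999), and Muc13, a mucin gene, was second for both (0.999), so the order among the closest genes is not resolved at these digits. The other members had other neighbours: Susd1 for Prtn3 (0.997), Trem3, a myeloid receptor gene, for Ctsg (0.993), and Gpnmb, a glycoprotein gene of macrophages, for Mmp8 (0.984).

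Within the 6 means of CDP alone, among 862 genes, the closest to Ctsg was Lgals3, the galectin 3 gene (0.999), and to Mmp8 Cd300lf, a myeloid receptor gene (0.999). For Prtn3 it was the lipoprotein receptor gene Scarb1 (0.996), with its neighbour Plppr3 second (0.993). Trem3 changed by −2.18 ± 0.10 in CDP at 24 h, Lgals3 by −1.35 ± 0.14 and Gpnmb by −2.04 ± 0.19.

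The members differed in how much the replicates of a cell varied. In MPP the means of the 3 replicate numbers over all 6 times were within 0.12 of each other for each of the 4 azurophil genes. These genes lay close to the top of the scale in MPP, and whether this narrowed their spans was not tested. In CDP the spans of the same 4 genes were 0.35 (Elane) to 0.63 (Mpo). In MPP the means spanned 0.55 for Lcn2, 0.76 for Ngp and 1.21 for S100a8. Replicate 1 was the lowest at 6 of 6 times for each of these 3 and for Elane. Some further late genes varied in the same manner. The largest spans on their lists were 2.23 for Ltf, 2.01 for Camp, the cathelicidin gene, 1.49 for S100a9 and 1.31 for Chil3. Replicate 1 was lowest on average for all 4. Other late genes varied little, such as B4galt1 (0.12), Cybb (0.16) and Adam8 (0.25), and the azurophil gene Cd63 spanned 0.67. The spans thus did not divide all genes by granule class. Mmp8 did not follow: its replicate means were 11.69, 12.29 and 11.70, with replicate 2 the highest. Mean levels of the mature neutrophil markers in replicates 1, 2 and 3 were 8.71, 8.88 and 9.04.

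CDP had an order of its own. Replicate 3 was the lowest at 6 of 6 times for Ngp, with means of 9.20, 8.80 and 7.75, and for S100a8, with 7.49, 7.36 and 6.93. Mpo varied by 0.63 between the replicate means, with replicate 1 the highest at 8.81. The replicate factor in the fits takes up such steady offsets. The SE of Ngp was 0.10 for its change in CDP with this factor and 0.47 for the untreated comparison without it.

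**Figure D5:**
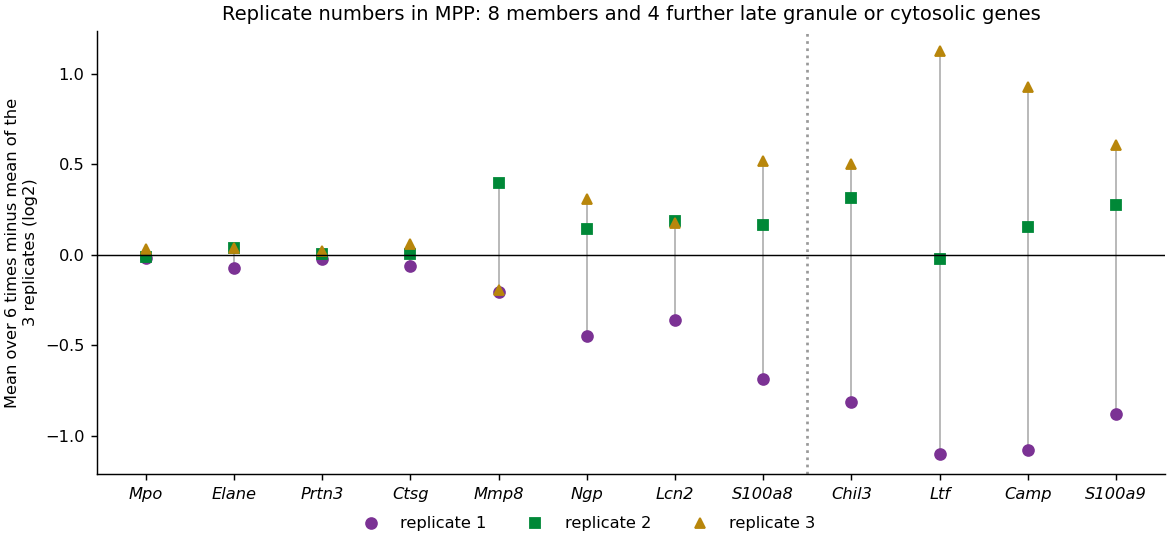
Mean over the 6 times in each replicate number of MPP, less the mean of the 3 replicates (y axis, log2), for the 8 members and, right of the dotted line, 4 further late granule or cytosolic genes (x axis). The replicates of the 4 azurophil members, which lie close to the top of the scale in MPP, are within 0.12 of each other. S100a8 spans 1.21 and Ltf 2.23, with replicate 1 at the bottom. The 4 further genes are those with the largest spans on their lists.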

How the data were processed

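RNA levels of MPP and CDP were measured on 36 Affymetrix Mouse Gene 1.0 ST arrays. The authors deposited a log2 intensity for each probe set, made with Affymetrix Power Tools and RMA per the submitters' processing notes, with no version given. RMA sets all arrays to 1 distribution and compresses changes near either end. Of 35556 probe sets, 21789 carry 1 symbol, 1621 several and 12146 none. The brightest probe set stood for each of 19938 genes. Replicates are biological by the study's account. One protocol text of the labels has 6 h where titles have 8 h, which was used.

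Tests were made with limma 3.58.1 in R 4.3.3, two-sided, with Benjamini-Hochberg adjustment over all genes. Times were compared within a cell on 18 arrays with the replicate number as a block, which the correlations of same-numbered residuals bear out (all 15 above 0.1 in each cell, lowest 0.189). Comparisons of the cells used 36 arrays without a block, which takes same-numbered arrays as independent and can make p-values too small. The difference of responses used a block within each cell. On simulated data with 100 genes changed by 2 on the log2 scale, 100% were recovered at CDP 24 h. Members and gene lists were chosen with earlier results of these data known. All members are named, with the 4 largest called genes of a list at most. Other normalizations, filters, variance models and left-out arrays were tried.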

Additional observations from a re-analysis of the deposited data

Results flagged for a closer look

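A test of the difference between the responses of CDP and MPP passed for 3 members. For Ctsg the CDP change minus the MPP change was −1.46 at 8 h, −2.14 at 12 h and −3.43 at 24 h on the log2 scale. It was −0.38 at 4 h, which did not pass. Ctsg and Prtn3 in MPP lay close to the top of the scale, and whether this held back their changes was not tested. For Mmp8 it was −3.01 at 24 h, a fall in both cells that was greater in CDP. For Prtn3 it was −1.28 at 24 h, where CDP alone fell by more than the fold threshold. Groups of 3 arrays are too small for the outlier test, which was not run.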

How the results depend on the processing

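Of 1023 alternative values of the members, 1001 kept their direction and their side of the threshold, and the number of members called against 0 h, between the cells and between the responses at 24 h was the same under every alternative tried. Without the replicate block 3 members were called lower in CDP at 24 h and 1 in MPP, and with it 7 in untreated CDP, so the block changed no call beyond the CDP step of Ctsg from 4 to 8 h. In the CDP step from 8 to 12 h 1 member passed with all 36 arrays in a fit, after quantile normalization or with the mean of probe sets, against 0. Without the block the genes with a greater fall in CDP were 27 against 43 at 8 h and 54 against 94 at 12 h. Without replicate 1 or 2 those at 8 h were 19 and 22, and the cause was not tested.

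Signs turned only for values that passed no test. With single replicates or arrays left out, the CDP change at 24 h ran from −0.222 to 0.230 for Mpo, −0.049 to 0.309 for Lcn2 and −0.096 to 0.359 for S100a8, and the MPP change of Lcn2 from −0.181 to 0.024. The difference of the responses at 24 h ran from −0.191 to 0.261 for Mpo, −0.008 to 0.415 for Lcn2 and −0.140 to 0.047 for Elane. Without replicate 3 of untreated MPP and of CDP at 2 h together, an alternative chosen after seeing the data because their interferon-stimulated genes were high, the MPP change of Lcn2 was 0.006. With 3 arrays a group, the number of arrays limits the precision.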
